A study of Mus musculus with 6 samples.

Results

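Lipid-associated macrophage genes are the transcripts that macrophages express when they gather around dying adipocytes in obese fat and take up the released lipid. The 10 genes described here, Trem2, Tyrobp, Gpnmb, Cd9, Cd63, Spp1, Lgals3, Fabp5, Lipa and Cd68, were taken by gene symbol from a list of this programme, and all 10 were found among the 40213 genes of the deposited count table. All 10 also passed the filter on low counts, as did 14706 genes in all. By the study's account, the libraries were made from the mRNA of epididymal white adipose tissue (eWAT). WT-HFD is 3 libraries from male wild-type littermates and RFP KO-HFD is 3 libraries labelled as from male mice that lack RFP (Ret finger protein, a ubiquitin ligase encoded by Trim27) in the whole body. Both groups were fed a diet with 60% fat for 12 weeks from 8 to 10 weeks of age, and no lean control enters the comparison. The strain and the knockout allele are not given in the sources used here. The study asked how the loss of RFP alters gene expression in this fat depot.

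In these macrophages, TREM2 is a surface receptor that binds lipids and lipoproteins and has almost no cytoplasmic signalling part of its own. It passes its signal through TYROBP (also called DAP12), an adaptor whose phosphorylated motif recruits the kinase SYK. Cells in this state enlarge their lysosomes, hydrolyse cholesteryl esters and triglycerides with the lysosomal lipase encoded by Lipa, carry fatty acids on binding proteins, and express GPNMB, galectin-3, osteopontin and the tetraspanins CD9 and CD63. CD68 is a lysosomal glycoprotein that macrophages of many states share.

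A pair of libraries stood apart from the others. The total counts were 15216306 to 17215047 in WT-HFD and 4870239, 13924363 and 13309044 in the libraries labelled RFP KO-HFD 1, 2 and 3. The targeted gene Trim27 was at 22.7, 40.2 and 29.5 CPM in WT-HFD, at 4.10 and 4.63 CPM in RFP KO-HFD 2 and 3, and at 19.4 CPM in the library labelled RFP KO-HFD 1, so that Trim27 does not bear out the label of that library. CPM is the usual depth-scaled count, here with TMM factors, which set the library sizes so that most genes keep their level. The library labelled RFP KO-HFD 1 had counts for 10758 genes, against 16396 to 20278 in the other 5, and 2 of 9 adipocyte markers (Adipoq and Plin1) were at 0 in it. Its 7 hepatocyte markers summed to 24000 CPM and its 6 dendritic cell markers to 783 CPM, against 85.1 to 1568 CPM and 17.95 to 74.0 CPM in the other 5 libraries. In WT-HFD 2 the 5 smooth muscle markers summed to 19090 CPM and the 5 epididymal markers to 946 CPM, against at most 1025 CPM and 6.51 CPM elsewhere. The 17 general macrophage genes, among them Adgre1, Csf1r and Lyz2, were all detected in 5 libraries and 2 of them were at 0 in the library labelled RFP KO-HFD 1. Their summed level was 3696, 1762 and 3766 CPM in WT-HFD and 3082, 2194 and 1878 CPM in the libraries labelled RFP KO-HFD 1, 2 and 3. Transcripts of the mitochondrial genome had a share of 3.39% to 5.74% in each WT-HFD library. The share was 22.4%, 8.07% and 11.1% in the libraries labelled RFP KO-HFD 1, 2 and 3, where protein-coding genes made up 87.3%, 85.9% and 70.8%, against 94.8% to 95.6% in WT-HFD. The 9 adipocyte markers summed to 11410 to 15660 CPM in WT-HFD, to 20460 and 41350 CPM in RFP KO-HFD 2 and 3 and to 979 CPM in the library labelled RFP KO-HFD 1. With these markers and Trim27, both the tissue and the genotype of that library are uncertain. The part that these differences between libraries play in the values below was not tested. Values are from all 6 libraries, and those with the library labelled RFP KO-HFD 1, or this one and WT-HFD 2, left out are given beside many of them. In bulk tissue, fewer macrophages and less mRNA per macrophage cannot be told apart.

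Promoter sequences are shown for Trem2, Gpnmb and Cd68, the 3 genes that were lower in every RFP KO-HFD library than in every WT-HFD library, and for Spp1, whose direction turned when a single library was left out. Each is the 250 bases before the gene start, 5′ to 3′ on the strand of the gene, from RefSeq in GRCm38.p6. Capitals mark a match on either strand to the AP-1 motif TGANTCA or the PU.1 motif GAGGAAGT, and the E-box CACGTG and the M-box CATGTG, which proteins of the MITF and TFE family bind, were searched as well.
Trem2, chr17:48346151-48346400, plus strand: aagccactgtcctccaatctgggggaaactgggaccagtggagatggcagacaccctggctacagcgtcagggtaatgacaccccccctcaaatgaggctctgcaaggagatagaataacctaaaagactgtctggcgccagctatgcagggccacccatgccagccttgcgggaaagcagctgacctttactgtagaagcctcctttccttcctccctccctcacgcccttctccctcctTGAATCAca
Gpnmb, chr6:49036268-49036517, plus strand: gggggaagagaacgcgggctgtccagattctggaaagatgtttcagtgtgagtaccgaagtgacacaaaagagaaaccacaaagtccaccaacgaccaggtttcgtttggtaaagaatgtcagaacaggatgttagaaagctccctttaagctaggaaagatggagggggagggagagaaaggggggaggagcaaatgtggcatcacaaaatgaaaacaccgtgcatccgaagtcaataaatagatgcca
Cd68, chr11:69666171-69666420, minus strand: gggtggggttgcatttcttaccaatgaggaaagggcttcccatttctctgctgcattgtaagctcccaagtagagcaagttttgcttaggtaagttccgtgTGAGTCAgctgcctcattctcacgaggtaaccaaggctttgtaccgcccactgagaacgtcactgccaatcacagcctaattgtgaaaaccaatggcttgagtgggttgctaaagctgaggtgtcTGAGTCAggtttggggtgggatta
Spp1, chr5:104434861-104435110, plus strand: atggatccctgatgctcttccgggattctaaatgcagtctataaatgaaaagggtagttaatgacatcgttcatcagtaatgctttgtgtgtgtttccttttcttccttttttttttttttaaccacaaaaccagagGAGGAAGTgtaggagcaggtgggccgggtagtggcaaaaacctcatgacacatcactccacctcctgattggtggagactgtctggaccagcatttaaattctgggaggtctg

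The AP-1 motif begins 9 bases before the start of Trem2 and 149 and 24 bases before the start of Cd68, and the PU.1 motif begins 113 bases before the start of Spp1. None of the 4 motifs is in the Gpnmb window. Among 32851 RefSeq windows of this length, 6.75% hold the AP-1 motif, 2.44% the PU.1 motif, 6.02% the E-box and 12.3% the M-box. Windows were found for 8 of the 10 genes, and of the 4 that are not shown, Cd9 holds an M-box 38 bases before its start while Lgals3, Lipa and Cd63 hold none of the 4. The window found for Cd63 is not at the start of its full gene model. A match is only a run of letters, and no binding was measured.

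Across the set, most genes were lower in RFP KO-HFD, but none passed the test over all genes. In edgeR's quasi-likelihood test, 0 of the 10 reached an adjusted p under 0.05, and 0 of all 14706 genes tested did so (0%). At an unadjusted p under 0.05, 2 of the 10 (Gpnmb and Cd68) were lower and 0 were higher, and 2.7% of all genes tested (397) were lower and 595 were higher. The fitted log2 fold change was below 0 for 9 of the 10 genes and above 0 for Spp1. Of all 14706 genes tested, 8242 were below 0. The median over the 10 was -1.13, against -0.13 over all genes tested. Markers of some other cell types were lower as well. Their medians were -4.22 over 8 mesothelial genes and -1.62 over 7 fibroblast genes. With the library labelled RFP KO-HFD 1 left out these were -3.70 and -1.07. Markers of others were higher. Their medians were 6.35 over 7 hepatocyte, 3.52 over 6 dendritic cell, 2.52 over 4 neutrophil, 1.855 over 6 monocyte and 0.54 over 9 adipocyte genes. With that library left out these were 3.31, 1.43, 2.94, 0.69 and 1.10. The medians of 5 smooth muscle and 6 endothelial genes were -3.75 and -0.46, or -3.22 and 0.02 with that library left out. Without that library and WT-HFD 2 these were -1.23 and -0.10. The mesothelial genes summed to 89.8, 527 and 141 CPM in WT-HFD and to 8.09, 90.4 and 14.2 CPM in the libraries labelled RFP KO-HFD 1, 2 and 3, and the fibroblast genes to 3931, 1548 and 3496 CPM against 142.5, 1725 and 796.4 CPM. Every RFP KO-HFD library lay below every WT-HFD library for 7 of the 8 and for 4 of the 7, and the part of these cell types in the values of the 10 genes was not tested. In 3 of the 10 genes (Trem2, Gpnmb and Cd68), every RFP KO-HFD library lay below every WT-HFD library, an order found in 16% of all genes tested. When only RFP KO-HFD 2 and 3 were set against WT-HFD, 5 genes lay below (Cd9 and Lipa joined these), and so did 24.7% of all genes, while 1 gene (Cd63) lay above, as did 21.5% of all genes.

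**Figure D1:**
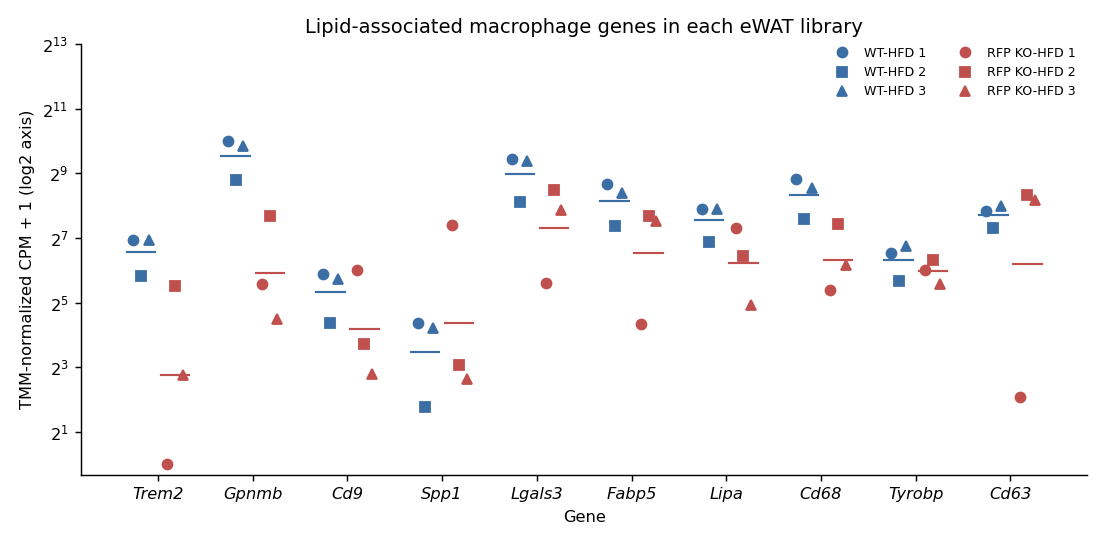
TMM-normalized CPM plus 1 (log2 axis) of the 10 genes in each library, with WT-HFD in blue and RFP KO-HFD in red. Circles, squares and triangles are replicates 1, 2 and 3, and each bar is the mean of the log2 values of 3 libraries. Trem2, Gpnmb and Cd68 show no overlap between the groups, and the library labelled RFP KO-HFD 1 is the lowest of all for Trem2, Lgals3, Fabp5, Cd68 and Cd63 and the highest for Cd9 and Spp1.

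The tool and the libraries changed which of the 10 genes were called. DESeq2 called 1 (Gpnmb, log2 fold change -3.10, adjusted p = 0.030) and 3.45% of 14159 genes. Limma-voom with library quality weights called 4, all lower in RFP KO-HFD, and 7.07% of all genes: Gpnmb (-3.83, adjusted p = 0.0166), Lipa (-2.17, adjusted p = 0.0192), Cd68 (-1.88, adjusted p = 0.0261) and Cd9 (-2.54, adjusted p = 0.0476). Without the library labelled RFP KO-HFD 1, edgeR called 0 of the 10 and 2 of 15606 genes (0.0128%), and the median log2 fold change of the 10 was -1.30 against -0.07 over all genes. Without both this library and WT-HFD 2, edgeR called 1 of the 10 (Cd9) and 3.35% of 15136 genes, and the median was -1.67 against -0.02.

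**Figure D2:**
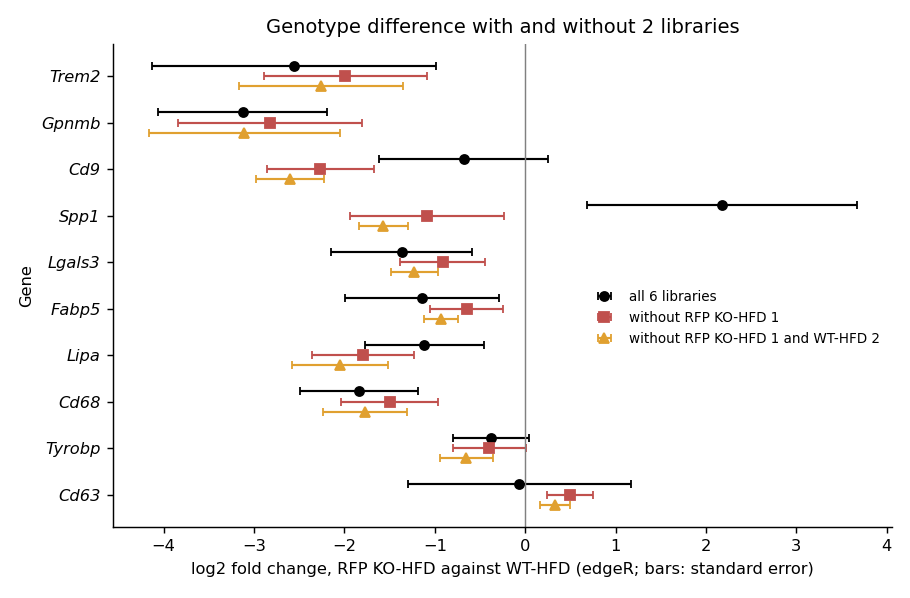
Fitted log2 fold change of RFP KO-HFD against WT-HFD for each gene from edgeR, with bars for the standard error. Black is the fit to all 6 libraries, red is without the library labelled RFP KO-HFD 1, and yellow is without it and WT-HFD 2. Spp1 moves from 2.18 to -1.09 and Cd9 from -0.68 to -2.27 once that library is left out, while Gpnmb, Trem2, Lipa and Cd68 stay below 0 in the 3 fits.

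Trem2, the lipid receptor, lies on chromosome 17 from 48653429 to 48659304 on the plus strand (here and for the genes that follow, in the GRCm39 coordinates of the deposited table). It was at 122, 56.0 and 121 CPM in WT-HFD 1, 2 and 3 and at 0, 44.8 and 5.73 CPM in the libraries labelled RFP KO-HFD 1, 2 and 3. The groups did not overlap, although RFP KO-HFD 2 was near the lowest WT-HFD library and the library labelled RFP KO-HFD 1 had no Trem2 count at all, where 3 counts would be 0.607 CPM. The means were 99.7 ± 37.9 CPM and 16.9 ± 24.4 CPM (SD, n = 3 each). In edgeR it had a log2 fold change of -2.55 (SE 1.57, adjusted p = 0.843), which was -1.99 when the library labelled RFP KO-HFD 1 was left out and -5.02 when RFP KO-HFD 2 was. Compared over single libraries, the difference gave p = 0.1 in a two-sided exact permutation test, the smallest value that 3 against 3 libraries allow.

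Tyrobp, the adaptor of TREM2 and of several other receptors of myeloid and NK cells (chromosome 7, 30113207 to 30117007, plus strand), was closer between the groups. It was at 91.6, 49.5 and 106 CPM in WT-HFD and at 63.7, 79.4 and 47.1 CPM in the libraries labelled RFP KO-HFD 1, 2 and 3, so that the groups overlapped. In edgeR it had a log2 fold change of -0.38 (SE 0.417, adjusted p = 0.935), which with 1 library left out ran from -0.66 (WT-HFD 2) to -0.18 (WT-HFD 3).

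Receptor and adaptor can be set against each other inside a library, where no scaling between libraries enters. Trem2 took 57.1% of the summed Trem2 and Tyrobp counts in WT-HFD 1 (95% exact binomial interval 55.5% to 58.6%), 53.1% in WT-HFD 2 (50.8% to 55.3%) and 53.4% in WT-HFD 3 (51.9% to 54.9%). In RFP KO-HFD 2 it took 36.1% (33.8% to 38.4%) and in RFP KO-HFD 3 it took 10.8% (8.20% to 14.0%), whereas the library labelled RFP KO-HFD 1 had 0 Trem2 counts beside 315 of Tyrobp, which allows up to 1.16%. These intervals cover counting error only. Tyrobp also serves other receptors of myeloid and NK cells, so its counts need not come from macrophages alone. Markers of some such cells had log2 fold change medians above 0, at 3.52 (dendritic cell), 2.52 (neutrophil) and 1.855 (monocyte). With the library labelled RFP KO-HFD 1 left out these were 1.43, 2.94 and 0.69. The part of such cells in the Trem2 share was not tested. WT-HFD 2, whose CPM of both genes was the lowest in its group, had a share close to that of WT-HFD 3. The mean share was 54.5% ± 2.23 in WT-HFD and 15.6% ± 18.5 in RFP KO-HFD (SD, n = 3 each, p = 0.1 in a two-sided exact permutation test, the smallest possible).

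Gpnmb, a transmembrane glycoprotein of lysosomes and the cell surface (chromosome 6, 49013449 to 49044413, plus strand), had the lowest fitted log2 fold change among the 10. It was at 1021, 439 and 920.3 CPM in WT-HFD and at 46.5, 205 and 21.6 CPM in the libraries labelled RFP KO-HFD 1, 2 and 3. Every RFP KO-HFD library was below every WT-HFD library, and RFP KO-HFD 2 was the highest of its group. The means were 793 ± 311 CPM and 90.9 ± 99.2 CPM (SD, n = 3 each), and in edgeR it had a log2 fold change of -3.12 (SE 0.936, adjusted p = 0.599). It was -2.83 without the library labelled RFP KO-HFD 1 and -3.11 without that library and WT-HFD 2. The exact permutation test gave p = 0.1, two-sided.

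Cd68, the lysosomal glycoprotein used to mark macrophages (chromosome 11, 69555039 to 69556996, minus strand), was at 453, 193 and 372 CPM in WT-HFD and at 40.6, 173 and 70.3 CPM in the libraries labelled RFP KO-HFD 1, 2 and 3. The groups did not overlap, with RFP KO-HFD 2 just below WT-HFD 2. In edgeR it had a log2 fold change of -1.84 (SE 0.652, adjusted p = 0.670), or -1.50 when the library labelled RFP KO-HFD 1 was left out. The exact permutation test gave p = 0.1, two-sided.

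Of the tetraspanins, which organize membrane domains, Cd9 and Cd63 went different ways. Cd9 (chromosome 6, 125437229 to 125471723, minus strand), found at the cell surface, was at 58.2, 19.8 and 52.7 CPM in WT-HFD, at 12.3 and 5.95 CPM in RFP KO-HFD 2 and 3, and at 63.7 CPM in the library labelled RFP KO-HFD 1. That last value was above all 3 WT-HFD libraries and the other 2 were below all 3. In edgeR Cd9 had a log2 fold change of -0.68 (SE 0.935, adjusted p = 0.948), which became -0.22 when RFP KO-HFD 3 was dropped and -0.33 when RFP KO-HFD 2 was. With the library labelled RFP KO-HFD 1 dropped it was -2.27 (adjusted p = 0.119), and without that library and WT-HFD 2 it was -2.60 (adjusted p = 0.0495 in edgeR). The table also lists 2 long noncoding RNAs on the opposite strand over Cd9, with at most 14 counts in any library.

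Cd63 (chromosome 10, 128731577 to 128748691, plus strand), a tetraspanin of late endosomes, lysosomes and exosomes that many cell types express, was at 226, 159 and 254 CPM in WT-HFD. It was at 318 and 289 CPM in RFP KO-HFD 2 and 3, above every WT-HFD library, and at 3.24 CPM (16 counts) in the library labelled RFP KO-HFD 1. In edgeR it had a log2 fold change of -0.07 (SE 1.24, adjusted p = 0.998), and it was 0.49 without the library labelled RFP KO-HFD 1 (adjusted p = 0.286) and 0.06 without WT-HFD 3.

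Spp1, which encodes the secreted phosphoprotein osteopontin (chromosome 5, 104582977 to 104588919, plus strand), was at 19.8, 2.45 and 17.8 CPM in WT-HFD and at 7.39 and 5.29 CPM in RFP KO-HFD 2 and 3. At 169 CPM, the library labelled RFP KO-HFD 1 was far above the rest and 12.6 times the WT-HFD mean, and the positive log2 fold change of 2.18 (SE 1.49, adjusted p = 0.875 from edgeR) turned with it. Without that library the log2 fold change was -1.09 (adjusted p = 0.463). The counts were few, with 362, 43 and 340 in WT-HFD, and RFP KO-HFD 2 and 3 had 101 and 48.

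Lgals3, which encodes the lectin galectin-3 (chromosome 14, 47611317 to 47623624, plus strand), was at 702, 274 and 660 CPM in WT-HFD and at 47.5, 356 and 230.1 CPM in the libraries labelled RFP KO-HFD 1, 2 and 3. RFP KO-HFD 2 exceeded WT-HFD 2, so that the groups overlapped. In edgeR it had a log2 fold change of -1.37 (SE 0.780, adjusted p = 0.821), or -0.91 when the library labelled RFP KO-HFD 1 was left out.

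The members that handle lipid were less uniform. Fabp5, a cytosolic carrier of fatty acids (chromosome 3, 10077645 to 10081670, plus strand), was at 404, 164 and 332 CPM in WT-HFD and at 19.4, 205 and 184 CPM in the libraries labelled RFP KO-HFD 1, 2 and 3. RFP KO-HFD 2 and 3 lay inside the WT-HFD range, and in edgeR it had a log2 fold change of -1.14 (SE 0.851, adjusted p = 0.888), or -0.65 when the library labelled RFP KO-HFD 1 was left out. Lipa, the lysosomal acid lipase (chromosome 19, 34469716 to 34504874, minus strand), was at 239, 117 and 235 CPM in WT-HFD and at 158, 85.7 and 29.3 CPM in the libraries labelled RFP KO-HFD 1, 2 and 3. Here the library labelled RFP KO-HFD 1 lay inside the WT-HFD range and the other 2 below it. In edgeR Lipa had a log2 fold change of -1.12 (SE 0.660, adjusted p = 0.828), or -1.79 when the library labelled RFP KO-HFD 1 was left out.

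Some orders held in all 10 genes. WT-HFD 2 was the lowest WT-HFD library and RFP KO-HFD 3 was below RFP KO-HFD 2 for each of them. The library labelled RFP KO-HFD 1 was below all WT-HFD libraries for 6 genes and above all of them for 2 (Cd9 and Spp1). How many of all genes share these orders was not counted. That library had counts for 10758 genes, against 16396 to 20278 in the others. In each library, the median over the 10 genes of the log2(CPM + 1) difference from the WT-HFD mean was 0.47, -0.75 and 0.35 in WT-HFD and -3.16, -0.69 and -1.65 in the libraries labelled RFP KO-HFD 1, 2 and 3. By this measure RFP KO-HFD 2 was close to WT-HFD 2.

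Relative to the general macrophage genes of the same library, the WT-HFD libraries lay close together for Trem2, Gpnmb and Lipa. The RFP KO-HFD libraries lay below them. Per 1000 counts of the 17 general macrophage genes, Trem2 was at 32.9, 31.8 and 32.2 in WT-HFD and at 0, 20.4 and 3.05 in the libraries labelled RFP KO-HFD 1, 2 and 3. Gpnmb was at 276, 249 and 244 in WT-HFD against 15.1, 93.2 and 11.5, and Lipa at 64.7, 66.1 and 62.5 against 51.2, 39.1 and 15.6. So the low CPM of these genes in WT-HFD 2 went with low CPM of the general macrophage genes, and the ratio was not low there. Cd68 was at 123, 110 and 98.7 in WT-HFD against 13.2, 78.6 and 37.4. In these 4 of the 10 genes every RFP KO-HFD library lay below every WT-HFD library, an order that 6.14% of all genes tested had by this ratio (p = 0.1 each in two-sided exact permutation tests, the smallest possible).

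For the adaptor and the other 5 genes the groups overlapped by this ratio. Tyrobp was at 24.8, 28.1 and 28.1 per 1000 in WT-HFD and at 20.7, 36.2 and 25.1 in the libraries labelled RFP KO-HFD 1, 2 and 3 (p = 0.9 in the two-sided exact permutation test). Cd9 was at 15.8, 11.2 and 14.0 in WT-HFD, at 5.60 and 3.17 in RFP KO-HFD 2 and 3, below all of these, and at 20.7 in the library labelled RFP KO-HFD 1. Spp1 was at 5.36, 1.39 and 4.72 in WT-HFD against 54.7, 3.37 and 2.81. Cd63 was at 61.1 to 89.9 in WT-HFD, at 145 and 154 in RFP KO-HFD 2 and 3 and at 1.05 in the library labelled RFP KO-HFD 1. Lgals3 and Fabp5 in RFP KO-HFD 2 (162 and 93.2) lay within their WT-HFD ranges of 155 to 190 and 88.3 to 109. The denominator was not made up alike in all libraries. Lyz2 led it with 20.3% to 27.7% of its counts in WT-HFD and with 14.7% in RFP KO-HFD 2. C1qa led it with 20.45% in RFP KO-HFD 3. Mpeg1 took 53.4% of it in the library labelled RFP KO-HFD 1. In that library Ptprc and Aif1 were at 923% and 710.5% of their WT-HFD mean CPM, and Adgre1 was at 8.48%. In RFP KO-HFD 2 and 3, Ptprc was at 61.3% and 116%, Aif1 at 200% and 49.8%, and Adgre1 at 39.8% and 8.79%. How far cells other than macrophages add to this denominator was not tested.

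When the fit was scaled to these general macrophage counts in place of the library sizes, the median over all genes tested moved from -0.13 to 0.17 on the log2 scale, and that of the 10 genes from -1.13 to -0.68, or from -0.996 to -0.846 relative to all genes. Under this scaling 7 of the 10 were lower and Tyrobp (0.017) and Cd63 (0.46) joined Spp1 above 0. Of all 14706 genes tested, 6098 were below 0 with it. With library totals alone, the medians were -0.50 for all genes and -1.43 for the 10.

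**Figure D3:**
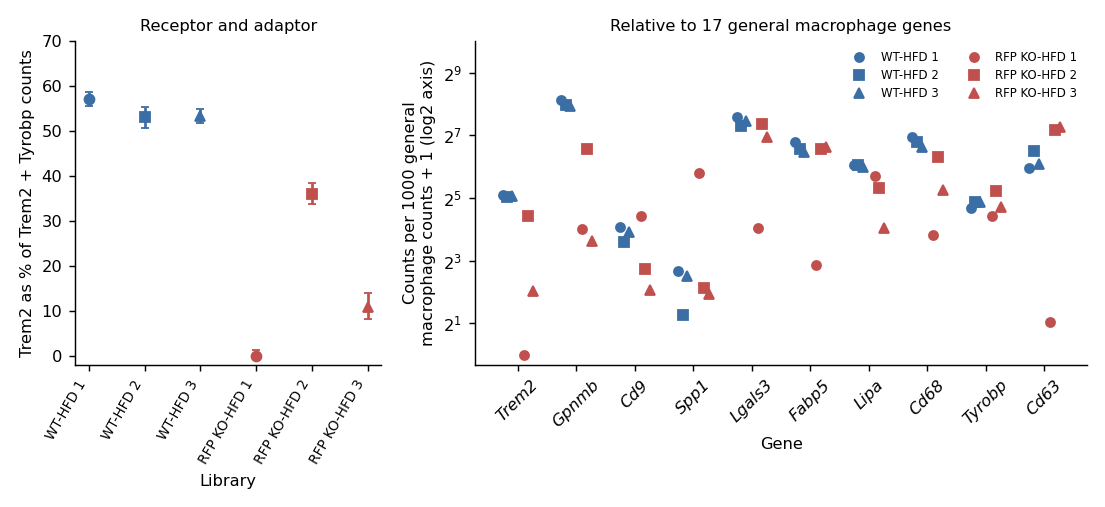
Left, Trem2 as a percentage of the summed Trem2 and Tyrobp counts of each library, with 95% exact binomial intervals. Right, counts of each gene per 1000 counts of 17 general macrophage genes, plus 1, on a log2 axis, with WT-HFD in blue and RFP KO-HFD in red. The 3 WT-HFD libraries lie at 53.1% to 57.1% on the left, and on the right the groups are apart for Trem2, Gpnmb, Lipa and Cd68.

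A wider list of 36 genes of the same programme (cathepsins and other lysosomal proteins, lipid droplet and cholesterol genes, and surface proteins) leaned in the same direction. In edgeR, 31 of the 36 had a log2 fold change below 0 (27 when scaled to the general macrophage counts) and 5 above 0. Of all 14706 genes tested, 8242 were below 0 (6098 with that scaling). None of the 36 passed the adjusted threshold. At an unadjusted p under 0.05, 5 of the 36 were lower and 0 higher, and 2.7% of all genes were lower. The median log2 fold change of the 36 was -0.96, against -0.13 over all genes tested. Every RFP KO-HFD library lay below every WT-HFD library for 14 of the 36, an order that 16% of all genes share, and RFP KO-HFD 2 and 3 did so for 17, against 24.7% of all genes. Atp6v0d2, a subunit of the lysosomal proton pump, was at 165, 54.4 and 141 CPM in WT-HFD and at 2.43, 21.3 and 3.52 CPM in the libraries labelled RFP KO-HFD 1, 2 and 3 (log2 fold change -3.71, adjusted p = 0.599 from edgeR). Cd84, a receptor of the SLAM family on leukocytes, was at 79.4, 22.99 and 67.9 CPM against 1.21, 16.2 and 4.52 CPM (-2.94). Without the library labelled RFP KO-HFD 1, 32 of the 36 were below 0 and the median was -0.72, against -0.07 over all genes.

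Genes that handle cholesteryl esters were on the same side. All 9 of this list had a log2 fold change below 0 (7 of 9 when scaled to the general macrophage counts). Of all 14706 genes tested, 8242 were below 0 (6098 with that scaling). At an unadjusted p under 0.05, 3 of 9 were lower, as were 2.7% of all genes. The median of the 9 was -0.78, against -0.13 over all genes. It was -0.51, with 8 of 9 below 0, when the library labelled RFP KO-HFD 1 was left out. Soat1, which esterifies cholesterol, was at 53.5, 32.0 and 48.6 CPM in WT-HFD and at 4.85, 20.6 and 4.30 CPM in the libraries labelled RFP KO-HFD 1, 2 and 3. Nceh1, a neutral cholesteryl ester hydrolase, was at 77.3, 37.0 and 70.5 CPM against 12.9, 18.3 and 3.30 CPM. Lamp2, a glycoprotein of the lysosomal membrane, was at 247, 154 and 257 CPM against 113, 107 and 80.6 CPM. Their log2 fold changes were -2.16, -2.42 and -1.13, none of them past the adjusted threshold, and the groups did not overlap for these 3 genes of the 9, an order found in 16% of all genes. Scarb2, another protein of that membrane, had a log2 fold change of -0.62, and its groups overlapped. The exporters were less apart, with Abca1 at -0.48 (0.02 without the library labelled RFP KO-HFD 1) and Abcg1 at -0.43.

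**Figure D4:**
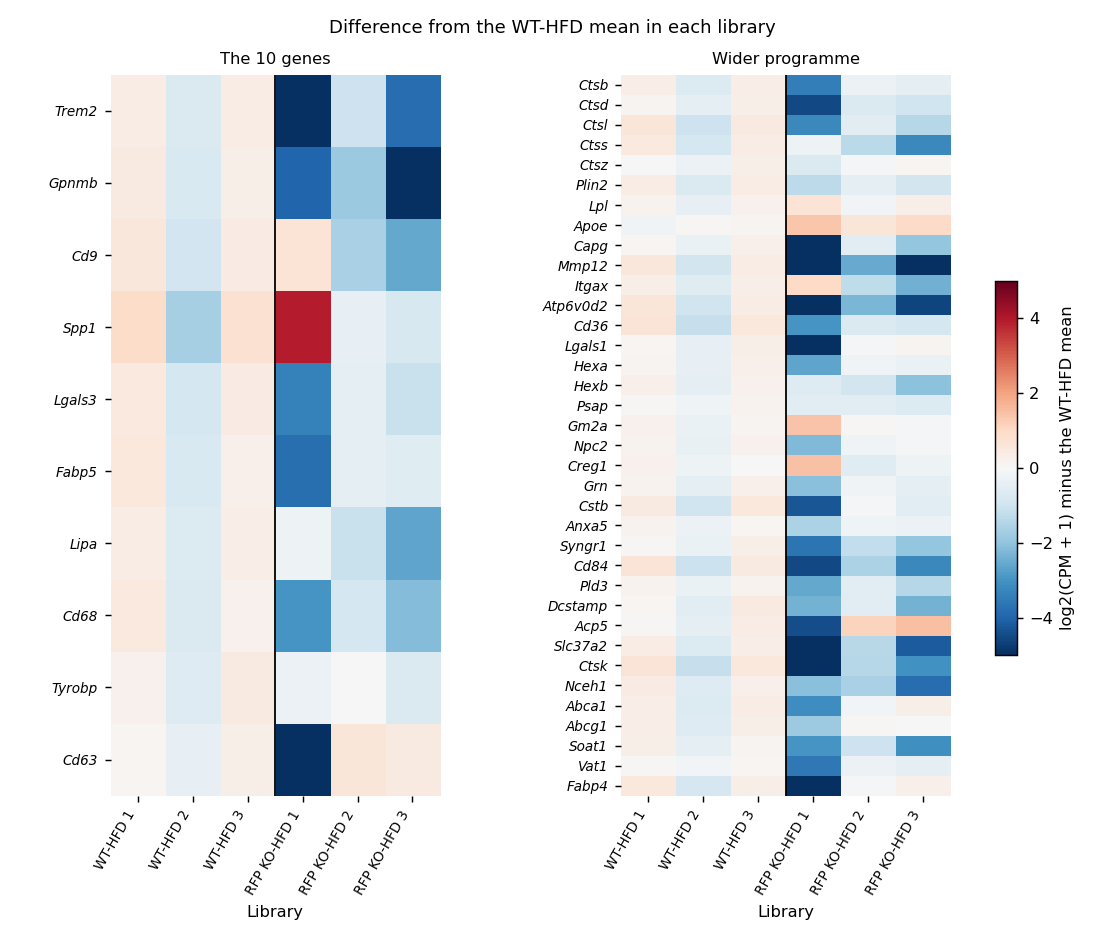
Difference of log2(CPM + 1) from the WT-HFD mean in each library, for the 10 genes (left) and the 36 genes of the wider programme (right). Blue is lower and red is higher, colours are limited to 5 log2 units on either side, and the black line parts WT-HFD from RFP KO-HFD. RFP KO-HFD 3 is deep blue for Gpnmb, Trem2, Mmp12 and Atp6v0d2, and RFP KO-HFD 2 is paler. The library labelled RFP KO-HFD 1 is deep blue in many rows but red for Spp1, Cd9, Itgax, Creg1, Gm2a, Apoe and Lpl.

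The partners of TREM2 were not all on one side. Of 10 signalling genes and ligands, 4 were below 0 and 6 above, with a median of 0.35 that became -0.45 without the library labelled RFP KO-HFD 1. Apoe, an apolipoprotein that TREM2 binds, was higher in every RFP KO-HFD library, at 4003, 4702 and 4992 CPM in WT-HFD and at 11810, 6913 and 8819 CPM in the libraries labelled RFP KO-HFD 1, 2 and 3 (log2 fold change 1.01, adjusted p = 0.775 from edgeR). Hepatocytes make much Apoe as well, and the hepatocyte markers summed to 582.5 and 1568 CPM in RFP KO-HFD 2 and 3, against 85.1 to 134 CPM in WT-HFD. Their part in the Apoe level was not tested. Syk, the kinase recruited by Tyrobp, was at -0.79, and its groups overlapped. Plcg2 and Btk, which act after Syk, had log2 fold changes of 1.57 and 2.06 with all libraries, and of -0.35 and -1.06 once the library labelled RFP KO-HFD 1 was left out. Of the other TREM receptors, 2 of 5 could be tested, and Treml4 and Treml2 were at 79.7 and 33.4 CPM in the library labelled RFP KO-HFD 1, at 1.39 to 6.94 CPM in RFP KO-HFD 2 and 3 and at 0.328 to 1.195 CPM in WT-HFD.

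The relatives of single members were mixed. Among 7 other tetraspanins, 3 were below 0 and 4 above (median 0.04), with Tspan3 at -0.74, Cd82 at 0.62, Tspan4 at 1.19 and Cd53 at -0.56. Of 4 other galectins, 2 were below 0 and 2 above: Lgals9 was at 0.94 and Lgals8 at -0.43, Lgals1 was at -0.56 (-0.002 without the library labelled RFP KO-HFD 1), and Lgals4 was at 0.15 (-0.51 when RFP KO-HFD 2 was left out). The galectin median was -0.14, or 0.35 when the library labelled RFP KO-HFD 1 was left out. Of 7 receptors of osteopontin, 5 were below 0 (median -0.87, or -0.45 without the library labelled RFP KO-HFD 1), with Itgb1 at 493, 452 and 459 CPM in WT-HFD and 221, 295 and 193 CPM in the libraries labelled RFP KO-HFD 1, 2 and 3 (-0.99, adjusted p = 0.671 from edgeR). The other 3 named by p were Itgb3 at -1.22, Cd44 at -1.17 and Itga4 at 2.95, and the last 2 were -2.21 and 0.58 when the library labelled RFP KO-HFD 1 was left out. Among fatty acid binding proteins, Fabp4 of adipocytes and macrophages was at -0.58 (-0.03 without the library labelled RFP KO-HFD 1) and Fabp3 at -2.07. Fabp1 and Fabp2 of liver and gut were at 1588 and 53.6 CPM in the library labelled RFP KO-HFD 1. In RFP KO-HFD 2 and 3, Fabp1 was at 39.0 and 103 CPM and Fabp2 at 4.54 and 3.19 CPM. In WT-HFD they were at most 9.28 and 0.626 CPM.

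Transcription factors linked to this programme had a median of 0.09 over 13 genes, 5 of them below 0. Bhlhe41, a repressor of the basic helix-loop-helix family, was at 25.5, 36.1 and 24.7 CPM in WT-HFD and at 0, 15.4 and 5.07 CPM in the libraries labelled RFP KO-HFD 1, 2 and 3 (-2.06, adjusted p = 0.872 from edgeR). Mitf, which drives lysosomal genes and Gpnmb, was at -0.97 (-0.59 without the library labelled RFP KO-HFD 1) and Bhlhe40, a relative of Bhlhe41, at 0.52 (0.09), and their groups overlapped. Nr1h3, the oxysterol receptor LXR alpha, was at 83.4 to 113 CPM in WT-HFD, at 189 and 336 CPM in RFP KO-HFD 2 and 3, above all of these, and at 27.9 CPM in the library labelled RFP KO-HFD 1. In edgeR its log2 fold change was 0.93 (adjusted p = 0.911), or 1.422 when that library was left out (adjusted p = 0.0945). DESeq2 gave it an adjusted p of 0.799. Limma-voom with quality weights gave it an adjusted p of 0.0496, in a fit that called 7.07% of all genes.

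Macrophage genes outside the programme had medians closer to 0. Of the 17 general macrophage genes, 12 were below 0 (median -0.41, or -0.19 without the library labelled RFP KO-HFD 1), with 4 lower at an unadjusted p under 0.05: Adgre1, the F4/80 antigen (-2.39), Lyz2, a lysozyme (-1.74), Cybb, a subunit of the phagocyte oxidase (-1.52), and Csf1r, the receptor for the growth factor CSF1 (-1.16). Without that library and WT-HFD 2 their median was -0.49 and edgeR called 5 of the 17, against 1 of the 10 lipid-associated genes and 3.35% of all genes. With all 6 libraries, 2 of the 10 lipid-associated genes and 2.7% of all genes were lower at an unadjusted p under 0.05. Lower values were thus not confined to the lipid-associated genes. Of 7 genes of resident macrophages, 4 were below 0 (median -0.39, or 0.13 when the library labelled RFP KO-HFD 1 was left out). Mrc1, the mannose receptor, was at -0.82, Folr2 at -0.74, Lyve1 at 1.17 and Cbr2 at -0.50 (0.0044 without the library labelled RFP KO-HFD 1). Scaled to the general macrophage counts, where the median of all genes was 0.17, the medians of the general macrophage, resident macrophage and galectin lists were 0.11, 0.23 and 0.23, and with library totals, where it was -0.50, those of the other tetraspanins and the transcription factors were -0.43 and -0.305. The wider programme and the cholesteryl ester genes kept medians below 0 under both, at -0.43 and -0.32 with the first and -1.33 and -1.11 with the second. The median of the 10 lipid-associated genes, at -1.13, lay below those of both lists, a difference that was not tested.

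The 5 genes whose profile over the 6 libraries was most like the mean standardized profile of the 10 were Gdf3 (Pearson r = 0.999), AU022793 (0.995), Prdx1 (0.995), Gucy1a1 (0.994) and Cd200r4 (0.993). These values are descriptive, as the 6 points are the same libraries and include those that stand apart. Gdf3, a secreted factor of the TGF-beta superfamily, was at 8.54, 1.37 and 7.94 CPM in WT-HFD, at 1.68 CPM in RFP KO-HFD 2 and at 0 in the other 2. Prdx1, a peroxidase, was well expressed, at 373, 284 and 370 CPM against 247, 297 and 252 CPM in the libraries labelled RFP KO-HFD 1, 2 and 3. The mean profile was itself followed most closely by Cd68 (r = 0.956) and Gpnmb (0.943) and least by Cd63 (0.485), Cd9 (0.506) and Spp1 (-0.10).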

How the data were processed

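Counts were deposited by the authors as whole numbers for each gene and library, from poly(A)-selected CORALL libraries read as paired ends. The methods give Fastp for trimming, STAR for alignment and Salmon for quantification. Trimmomatic and mm10 stand in the submitters' processing notes, while the workbook's information sheet and chromosome accessions give GRCm39. Versions of these tools are not given in the sources used here. The table's normalized values and its own comparison columns (fold, p-values and q-values) were not used. Processed pseudogenes of Cd9, Cd63 and Fabp5 are annotated in the mouse genome, and how reads were shared with them is not given in the sources used here.

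Genes were filtered with filterByExpr (min.count 10, min.total.count 15), scaled by TMM and tested by genotype alone with glmQLFit and glmQLFTest (robust) in edgeR 4.0.16 under R 4.3.3, with Benjamini-Hochberg adjustment over all genes tested. Standard errors are the log2 fold change divided by the square root of the test's F. The two-sided exact permutation tests used log2(CPM + 1), or the ratio itself. The other fits used DESeq2 1.42.0, limma 3.58.1 (voom, also with library quality weights), other scalings and filters, a pseudocount of 0.1, the replicate number as a block, and libraries left out. The scripts were tested on simulated counts. Total counts per library, from 4870239 to 17215047, set the precision of low values.

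The 10 genes and the gene lists were chosen with earlier results of these data known. Named are all 10 genes, Trim27, up to 4 genes of smallest p of each companion list, and the 5 genes of the most similar profile. Adipoq, Plin1, Abca1, Abcg1, Mpeg1, C1qa, Mmp12, Itgax, Ptprc, Aif1, Creg1, Gm2a and Lpl were chosen after their values were seen. The labels do not state that libraries of a group come from separate animals, so p-values measure only the spread between these libraries, which may be technical.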

Additional observations from a re-analysis of the deposited data

How the results depend on the processing

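The median log2 fold change of the 10 genes stayed below 0 in each fit run, from -1.43 to -0.94 with 1 library left out, and that of the wider programme from -1.25 to -0.72. Of the 10 genes, DESeq2 called 1, limma-voom with quality weights 4 and edgeR without WT-HFD 2 and RFP KO-HFD 1 together 1; of the 36 wider genes they called 2, 11 and 1, and of all genes 488, 1039 and 507, against 0 in edgeR with 6 libraries. With 1 library left out, edgeR called 0 to 2 of all genes, the 2 without the library labelled RFP KO-HFD 1. Limma-voom without weights called 0. Spp1 turned to -1.38 with quality weights, -1.09 without the library labelled RFP KO-HFD 1 and -1.57 without both libraries (from -1.09 to 2.71 with 1 library left out). Cd63 turned to 0.20, 0.49 and 0.33 in these fits, 0.46 with macrophage scaling (where Tyrobp turned to 0.017) and 0.06 without WT-HFD 3 (from -0.48 to 0.49 with 1 library left out). The other 7 genes stayed below 0 in each fit that tested them; Trem2 was not tested with at least 10 counts required in every library. The cause of these shifts was not tested. Whether replicate numbers pair the libraries is not settled. Same-numbered libraries had deviations correlated at 0.043, 0.047 and 0.089, and the other pairs at -0.043 to -0.011. The values are small, although each library correlated best with its own number. With the replicate block edgeR called 0 genes, and the median of the 10 was -1.39. With 3 libraries a group and 4870239 counts in the smallest, low genes such as Spp1 and Cd9 are the least certain.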
